A study of Mus musculus with 12 samples.

Results

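The genes described here are the ionotropic and metabotropic glutamate receptors, the GABA, glycine and nicotinic acetylcholine receptors of whole mouse cochleae. They were chosen by symbol, with earlier results of these data known. The rule takes every row whose symbol starts with Gria, Grik, Grin, Grid or Grm and a digit, or with Gabr, Gabbr, Glra, Glrb, Chrna or Chrnb, except Chrna9 and Chrna10. The rule found 65 of the 23945 genes measured. Of these, 63 are receptor subunits. The other 2 share only the letters of the name: Grid2ip encodes a scaffold protein of synapses, and Grin1os is a noncoding transcript that overlaps Grin1 on the opposite strand. RNA-seq libraries were made from Dusp1-/- (KO) and Dusp1+/+ (WT) cochleae at 8 months and at 5 months, with 3 libraries in each of the 4 groups, which gives KO libraries F5, F6 and F27 against WT libraries F1, F10 and F12 at 8 months, and KO libraries E7, F18 and F19 against WT libraries E1, E3 and E4 at 5 months. All mice were on a mixed 129S2/SvPas and C57BL/6 background. The study's methods state for its mice in general, from their hearing, that males and females were analysed together. DUSP1 is a phosphatase that switches off MAP kinases, and no driver or tissue that would limit the knockout is named in the labels. The libraries are named by the code that each has in the labels. All 3 WT libraries at 5 months carry the letter E, as does KO library E7, and the other 8 carry the letter F. The labels do not say what the letters stand for.

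In the cochlea, inner hair cells release glutamate onto the endings of spiral ganglion neurons, where AMPA receptors built from Gria subunits carry the fast response. Efferent fibres from the brainstem release acetylcholine, GABA and other transmitters onto hair cells and ganglion fibres. GABA-A and glycine receptors are chloride channels, nicotinic receptors are cation channels, and GABA-B and the metabotropic glutamate receptors act through G proteins. Kainate and NMDA receptors are cation channels opened by glutamate, and the delta receptors bind synaptic organisers rather than glutamate.

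Values are FPKM (fragments scaled by transcript length and by the mapped reads of the library), which are scaled for gene length and so can be compared between genes. FPKM summed over all genes came to 500384 to 583073 per library, and the number of reads behind them is unknown. In the check of the targeted gene, Dusp1 read 55.6, 73.7 and 57.1 FPKM in KO against 43.0, 38.3 and 38.6 FPKM in WT libraries at 8 months, and 61.9, 81.5 and 75.3 FPKM in KO against 60.8, 47.6 and 29.5 FPKM in WT libraries at 5 months. Dusp1 reads were thus not lower in the libraries labelled KO, and FPKM of the whole gene do not show which part of the allele was transcribed. All 12 hair cell markers were above 0 in every library, with a summed level of 89.5 to 137 FPKM, and the 11 neuron markers summed to 1457 to 2206 FPKM. Library E1 (WT, 5 months) stood apart: markers of cerebellar and cochlear nucleus granule cells summed to 322 FPKM in E1 against 104 to 158 FPKM in the other 11 libraries, markers of central inhibitory neurons to 121 against 15.8 to 32.5 FPKM, and markers of central astrocytes to 555 against 127 to 244 FPKM. Among the granule cell genes, Cbln3 was at 47.6 FPKM in E1 against 0.364 to 0.709 FPKM in the others. Of the 8 astrocyte markers, 7 were highest in E1, but Aldoc alone had 386 FPKM there, against 57.3 to 105 FPKM elsewhere. Gfap, at 70.3 FPKM in E1, lay within its 39.8 to 99.5 FPKM elsewhere. Oligodendrocyte markers summed to 127 FPKM in E1, within the 77.0 to 150 FPKM of the others.

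Promoters are shown first for 5 genes on which the description turns: Glrb, the most abundant of all, Gabra6, which was seen almost only in E1, Chrna3 and Chrnb4, neighbours that varied together, and Chrnb2, which in each KO library lay below each WT library. RefSeq promoters of build GRCm38.p6, which run 250 bases before to 50 bases after a start site, were matched to 46 of the 65 genes. CG dinucleotides are in capitals. The windows are chr3:80913611-80913910, minus strand (Glrb), chr11:42321023-42321322, minus strand (Gabra6), chr9:55026513-55026812, minus strand (Chrna3), chr9:55048495-55048794, minus strand (Chrnb4), and chr3:89764583-89764882, minus strand (Chrnb2).
Glrb: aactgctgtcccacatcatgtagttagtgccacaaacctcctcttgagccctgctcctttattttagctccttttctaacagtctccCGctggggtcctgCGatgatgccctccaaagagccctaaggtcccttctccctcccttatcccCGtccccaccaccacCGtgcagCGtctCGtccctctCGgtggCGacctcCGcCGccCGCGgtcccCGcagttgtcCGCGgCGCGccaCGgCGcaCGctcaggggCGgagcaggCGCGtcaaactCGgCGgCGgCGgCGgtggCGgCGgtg
Gabra6: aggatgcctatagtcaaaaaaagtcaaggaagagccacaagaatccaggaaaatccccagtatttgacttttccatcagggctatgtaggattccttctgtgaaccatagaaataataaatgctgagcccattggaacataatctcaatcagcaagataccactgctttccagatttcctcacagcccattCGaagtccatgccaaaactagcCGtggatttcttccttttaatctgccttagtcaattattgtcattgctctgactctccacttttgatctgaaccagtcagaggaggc
Chrna3: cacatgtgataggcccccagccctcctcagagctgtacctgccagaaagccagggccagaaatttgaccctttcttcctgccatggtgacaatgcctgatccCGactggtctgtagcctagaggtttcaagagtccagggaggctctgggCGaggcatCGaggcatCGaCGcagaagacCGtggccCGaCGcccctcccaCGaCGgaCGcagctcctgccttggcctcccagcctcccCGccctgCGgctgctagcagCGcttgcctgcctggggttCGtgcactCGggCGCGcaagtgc
Chrnb4: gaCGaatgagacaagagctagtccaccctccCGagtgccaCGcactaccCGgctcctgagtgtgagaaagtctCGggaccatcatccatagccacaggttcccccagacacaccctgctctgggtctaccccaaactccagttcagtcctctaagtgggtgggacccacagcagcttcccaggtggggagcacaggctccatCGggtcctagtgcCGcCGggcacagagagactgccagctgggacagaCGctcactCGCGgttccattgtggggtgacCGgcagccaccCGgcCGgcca
Chrnb2: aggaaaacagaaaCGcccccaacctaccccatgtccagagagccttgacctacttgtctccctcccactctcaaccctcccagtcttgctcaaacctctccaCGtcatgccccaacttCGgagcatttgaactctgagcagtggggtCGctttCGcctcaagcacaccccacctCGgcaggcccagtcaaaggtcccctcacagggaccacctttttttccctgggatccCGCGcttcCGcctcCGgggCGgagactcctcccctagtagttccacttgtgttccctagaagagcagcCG
The Glrb promoter held 30 CG, and 11.7% of the 32851 RefSeq promoters hold as many. That of Gabra6 held 2, and 23.3% of all promoters hold as few. Chrna3, Chrnb4 and Chrnb2 held 18, 14 and 12. The 55 promoters of the 46 matched genes had a median of 13 CG, against 7 over all promoters, of which 94.6% hold at least 1. The letters GGGCGG, searched on both strands, were present in 30 of the 55 (54.5%) and in 35.7% of all promoters.

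Of the 65 genes, 36 reached a mean of 1 FPKM over the 11 libraries without E1, and 19 stayed below 0.5 FPKM in each of those 11. The members together summed to 262 to 350 FPKM in these libraries, with a median of 310 FPKM, and to 633 FPKM in E1. Glrb, the beta subunit that anchors glycine receptors at synapses, made up the largest part, with 88.0 to 132 FPKM over all 12 libraries and rank 729 among all genes. It was not higher in E1 (115 FPKM).

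**Figure D1:**
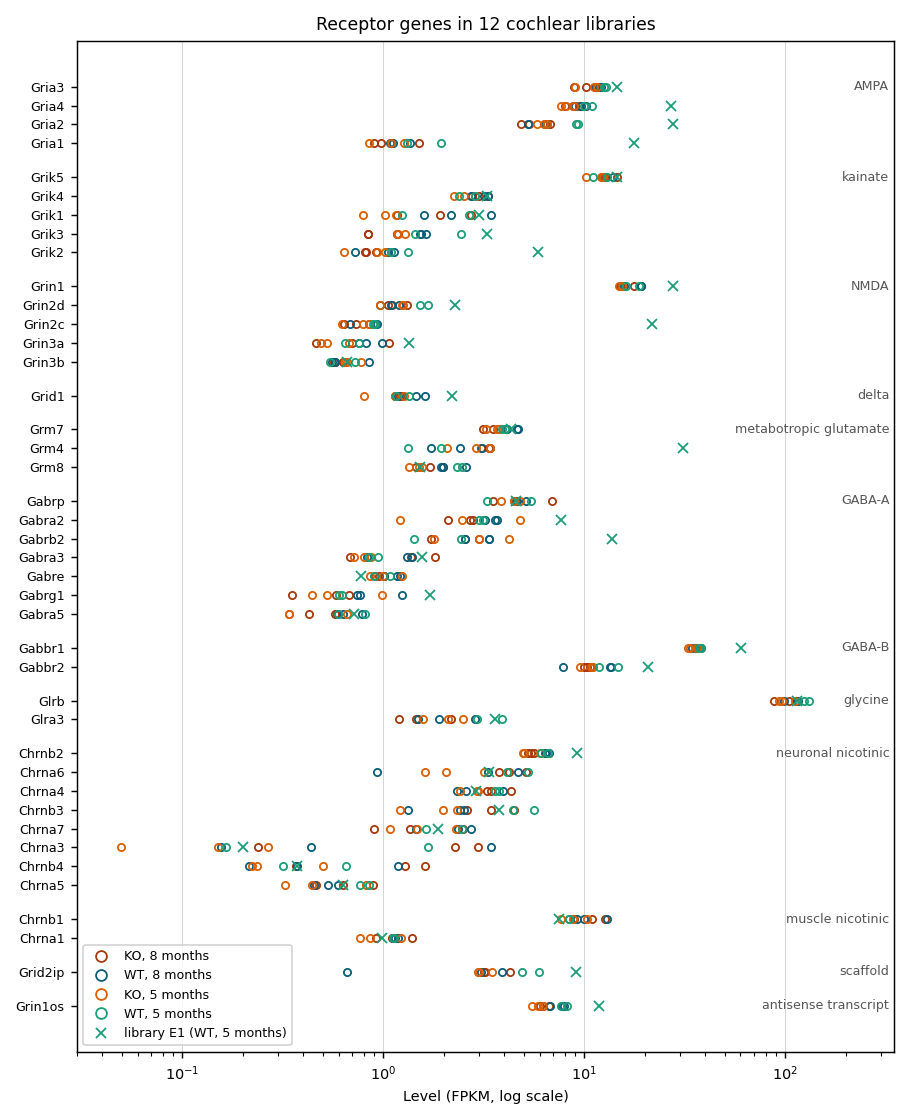
Levels of 41 members that averaged 0.5 FPKM or more in the 11 libraries without E1, on a log scale, grouped by class. Each point is a library, coloured by genotype and age, and E1 is a cross. Glrb lies near 100 FPKM in every library, and the cross lies far to the right for Gria1, Grin2c and Grm4.

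The glycine alpha subunits, which form the channel with Glrb, were low: Glra3 ranged over 1.20 to 3.91 FPKM, while Glra1, Glra2 and Glra4 stayed at or under 0.268 FPKM, and Glrb exceeded the sum of the 4 alpha subunits 44.6 times in the median of the libraries without E1. Of the GABA-B pair, Gabbr1, which binds GABA, was at 32.8 to 38.1 FPKM and Gabbr2, which couples to the G protein, at 7.85 to 14.8 FPKM in these libraries, a median ratio of 3.37. E1 had 60.2 and 20.9 FPKM for the same genes. Gabbr1 was thus the second member in abundance and the GABA-B pair kept its order in every library.

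The 16 GABA-A subunits together summed to 21.8 to 39.0 FPKM in the libraries without E1 and to 149 FPKM in E1. Gabrp, the pi subunit known from epithelial tissues, ranged over 3.28 to 6.90 FPKM without E1. Gabra2 and Gabrb2, subunits of synaptic receptors, had ranges of 1.21 to 4.77 and 1.43 to 4.21 FPKM. Gabra3 ranged over 0.683 to 1.80 FPKM, Gabre over 0.860 to 1.24 FPKM, Gabrg1 over 0.352 to 1.24 FPKM and Gabra5 over 0.340 to 0.813 FPKM. The delta subunit Gabrd is described with library E1. Gabra4, Gabrb1, Gabrg3 and Gabrq, and the 3 rho subunits Gabrr1, Gabrr2 and Gabrr3, stayed below 0.5 FPKM without E1.

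Of the glutamate receptors, Grin1, the obligatory subunit of NMDA receptors, was the highest, with 14.8 to 19.2 FPKM without E1. The Grin2 subunits that complete the channel were much lower, so that Grin1 exceeded their sum by a median of 8.57 times. Grin2d (0.964 to 1.66 FPKM) and Grin2c (0.621 to 0.929 FPKM) were present, with Grin3a at 0.461 to 1.07 and Grin3b at 0.544 to 0.846 FPKM, while Grin2a and Grin2b stayed at or under 0.0721 FPKM. Grin1os had 0.410 times the FPKM of Grin1 in the median. The genes overlap on chromosome 2, at 25146740-25154448 for Grin1os and 25146697-25174707 for Grin1 in mm9, and since it is not given whether reads were counted by strand, the 2 values may share reads.

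The AMPA receptors followed a fixed order in the libraries without E1: Gria3 took a median of 40.1% of the class, Gria4 32.3%, Gria2, the subunit that keeps calcium out of the channel, 23.2%, and Gria1 3.87%. Levels were 8.94 to 12.8 FPKM for Gria3, 7.67 to 10.9 FPKM for Gria4, 4.87 to 9.28 FPKM for Gria2 and 0.848 to 1.94 FPKM for Gria1. Among kainate receptors Grik5, which needs a partner subunit to form a channel, took 64.3%, at 10.2 to 14.5 FPKM. Grik4 ranged over 2.26 to 3.33 FPKM, and Grik1, Grik2 and Grik3 lay between 0.635 and 3.43 FPKM. Grid1, a delta receptor, ranged over 0.804 to 1.62 FPKM.

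The metabotropic glutamate receptors were led by Grm7, Grm4 and Grm8, which belong to the group that lowers cAMP and sits mostly on presynaptic endings. They had 3.14 to 4.68, 1.32 to 3.40 and 1.35 to 2.60 FPKM without E1. Grm2, Grm3, Grm5 and Grm6 stayed below 0.5 FPKM there. Among neuronal nicotinic receptors Chrnb2 was the highest at 4.95 to 6.69 FPKM, followed by Chrna6 (0.927 to 5.28 FPKM), Chrna4 (2.34 to 4.31 FPKM), Chrnb3 (1.21 to 5.61 FPKM) and Chrna7 (0.899 to 2.74 FPKM), whose ranges overlap. Chrna5 lay at 0.324 to 0.893 FPKM and Chrna2 at or under 0.411 FPKM.

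The muscle type subunits Chrnb1 and Chrna1 were at 7.65 to 13.0 and 0.771 to 1.39 FPKM without E1. Markers of skeletal muscle summed to 1088 FPKM in F18 and 1482 FPKM in E3 but to 11.9 to 243 FPKM in the other 10 libraries. Chrna1 did not stand out in F18 (0.859 FPKM) or E3 (1.12 FPKM).

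In library E1 a subset of the receptors was far higher than elsewhere. E1 was the highest library for 28 of the 48 tested members (58.3%), against 16.6% of all 16276 tested genes. It was at least 2 times every other library for 13 of the 48 (27.1%), against 1.31% of all tested genes. No other library was that far above the rest for any tested member. Gabra6, a subunit known from granule cells of the cerebellum and cochlear nucleus, was at 43.0 FPKM in E1, at no more than 0.266 FPKM in the other 11 libraries, and listed at 0 in 4 of them. Gabrd, its partner in receptors outside synapses, was at 15.7 FPKM against 0.169 to 0.559 FPKM. Grin2c stood at 21.8 against 0.621 to 0.929 FPKM, Gria1 at 17.8 against 0.848 to 1.94 FPKM, and Grm4 at 31.0 against 1.32 to 3.40 FPKM. These genes were high in the same library, E1, in which 7 of the 8 granule cell markers were highest. The other marker, Zic2 (97.5 FPKM in E1), lay within its 75.3 to 111 FPKM elsewhere. The part of granule cells in the levels of E1 was not tested.

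With E1 the make-up of the classes differed too. Gria1 took 20.4% of AMPA FPKM in E1, against 3.55% to 5.69% in the other libraries, and Grin1 exceeded the Grin2 subunits by only 1.14 times, against 6.60 to 9.47 times. Other genes were not raised in E1: Chrna6 (3.38 FPKM), Chrnb3 (3.75 FPKM), Chrna4 (2.90 FPKM), Chrna3 (0.201 FPKM), Glrb and Chrnb1 (7.51 FPKM) in E1 lay within or below the range of the others. Chrnb2 at 9.18 FPKM was above its 4.95 to 6.69 FPKM elsewhere, and Glra2 at 0.2501 FPKM was above its level of at most 0.0478 FPKM elsewhere. Because E1 is a WT library at 5 months, all comparisons with that group contain it.

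**Figure D2:**
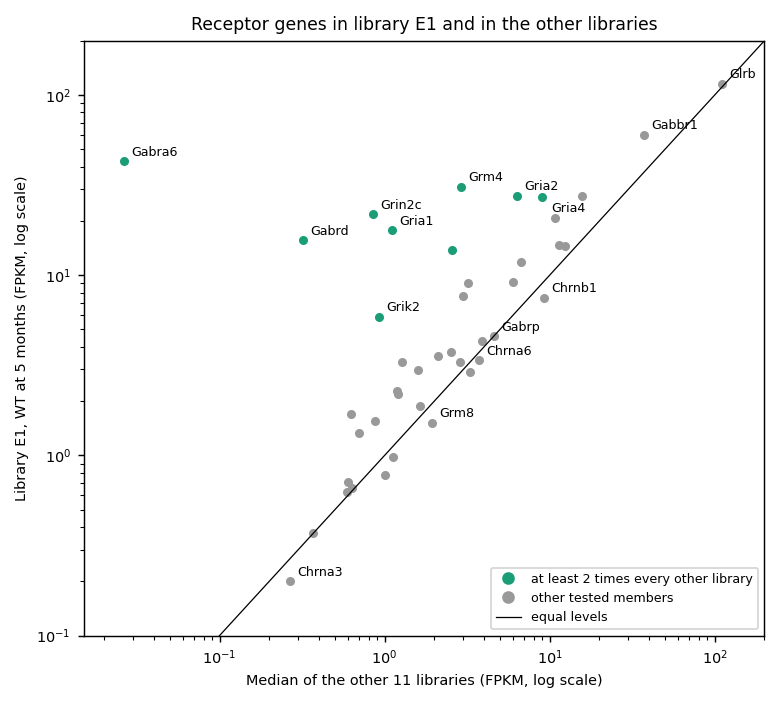
Level of 43 tested members in E1 (vertical) against the median of the other 11 libraries (horizontal), both in FPKM on log scales. The line marks equal levels. The 9 genes in green are at least 2 times every other library, and Gabra6 lies farthest from the line, while Glrb lies on it.

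The first comparison asks how KO cochleae differ from WT cochleae at 5 months. It was tested with limma on log2(FPKM + 0.5) over the 16276 genes that averaged 0.5 FPKM or more, in a fit of all 4 groups; changes are on that scale, which understates those of low genes. Of the 48 members that passed this filter, 0 were called at an adjusted p under 0.05, where 0.0676% of all tested genes were, and 0 of 45 were called without E1 (background 0.0369%). At an unadjusted p under 0.05, 18 of 48 were lower in KO (background 9.92%) and 0 higher (background 8.23%). Without E1 these were 11 of 45 lower (background 6.33%) and 1 higher (background 5.62%). The count of lower members was 7 without F18 and 10 without E7. The lowest adjusted p among members was 0.147, and 0.359 without E1. Gabra6 and Gabrd were among the 3 members that passed the filter only through E1.

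Most members lay on the lower side at this age. The fitted change was below 0 for 44 of 48, with a median of -0.41, against 55.7% of all tested genes and a median of -0.03; without E1 it was below 0 for 36 of 45, against 55.1% of all tested genes, with a median of -0.26. For 22 of the 48, all 3 KO libraries lay below all 3 WT libraries (background 13.8%), and for 0 above (background 11.3%). Without E1 it was 22 of 45 below (background 18.3%) and 1 above (background 14.4%). The 4 AMPA, 5 kainate, 8 neuronal nicotinic, 4 metabotropic glutamate, 2 GABA-B and 2 glycine genes tested all had changes below 0, and so had 10 of 12 GABA-A genes. Without E1 the AMPA, kainate, neuronal nicotinic, GABA-B and glycine genes were again all below 0, but 5 of 10 GABA-A genes lay below 0 and 5 above. Of the 3 metabotropic glutamate genes tested without E1, 2 lay below 0 and 1 above. Taken alone, KO library E7 was below all 3 WT libraries for 36 of 48 members, F18 for 35 and F19 for 28, against 35.9%, 42.0% and 24.5% of all tested genes. E7 is the only KO library with the letter E, and the part of the letters in these differences was not tested.

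Of the 18 members, 11 also had an unadjusted p under 0.05 without E1, and some of these are given here with both values. Gria2 had 6.31, 5.84 and 6.54 FPKM in KO against 27.7, 9.14 and 9.28 FPKM in WT libraries at 5 months, a log2 change of -1.04 ± 0.34 (SE; limma adjusted p = 0.202) and of -0.53 ± 0.14 without E1 (adjusted p = 0.362). Gria4 had 8.10, 7.67 and 8.87 FPKM in KO against 27.1, 10.9 and 9.99 FPKM in WT, a change of -0.78 with E1 and -0.33 without it. The groups do not overlap in either gene with or without E1, and the size depends on E1. Glrb had 96.3, 93.8 and 111 FPKM in KO against 115, 132 and 124 FPKM in WT, a change of -0.30 ± 0.11 (adjusted p = 0.221) and of -0.35 without E1. Glra3 had 2.10, 1.57 and 2.51 FPKM in KO against 3.58, 2.93 and 3.91 FPKM in WT, a change of -0.64 ± 0.23 (adjusted p = 0.221) and of -0.62 without E1. At 5 months both glycine receptor genes thus lay lower in each KO library, by about the same amount with and without E1, short of the threshold. Grm8 had 1.35, 1.55 and 1.51 FPKM in KO against 1.52, 2.47 and 2.33 FPKM in WT and overlapped only through E1, with a change of -0.38 with it and -0.56 without. At 8 months the groups overlapped in Gria2, Gria4, Glrb, Glra3 and Grm8, with changes of -0.10, -0.14, -0.11, -0.28 and -0.26.

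Among the largest changes at 5 months were those of genes high in E1: Gabra6 (-2.30 ± 1.30), Gabrd (-1.70 ± 0.91), Grin2c (-1.49 ± 0.85) and Gria1 (-1.47 ± 0.68), with adjusted p of 0.285 to 0.378. Without E1, Grin2c stood at -0.16 and Gria1 at -0.43, and Gabra6 and Gabrd were not tested. At the other end stood Chrnb1 (0.12), Gabre (0.11), Grin3b (0.06), Gabrp (0.00) and Grik4 (-0.13), none with groups apart. Grm4, 0.914 Mb from Dusp1 on chromosome 17 and the only member within 10 Mb of it, turned with E1. It had 2.89, 2.08 and 3.40 FPKM in KO against 31.0, 1.32 and 1.94 FPKM in WT, a change of -0.68 ± 0.84 with E1 and of 0.62 ± 0.23 without it (adjusted p = 0.405). At 8 months Grm4 had 3.39, 3.34 and 3.05 FPKM in KO against 1.74, 2.41 and 3.11 FPKM in WT, and the groups overlapped. Gabrb2 (-0.36 with E1 and 0.50 without) turned in the same way.

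**Figure D3:**
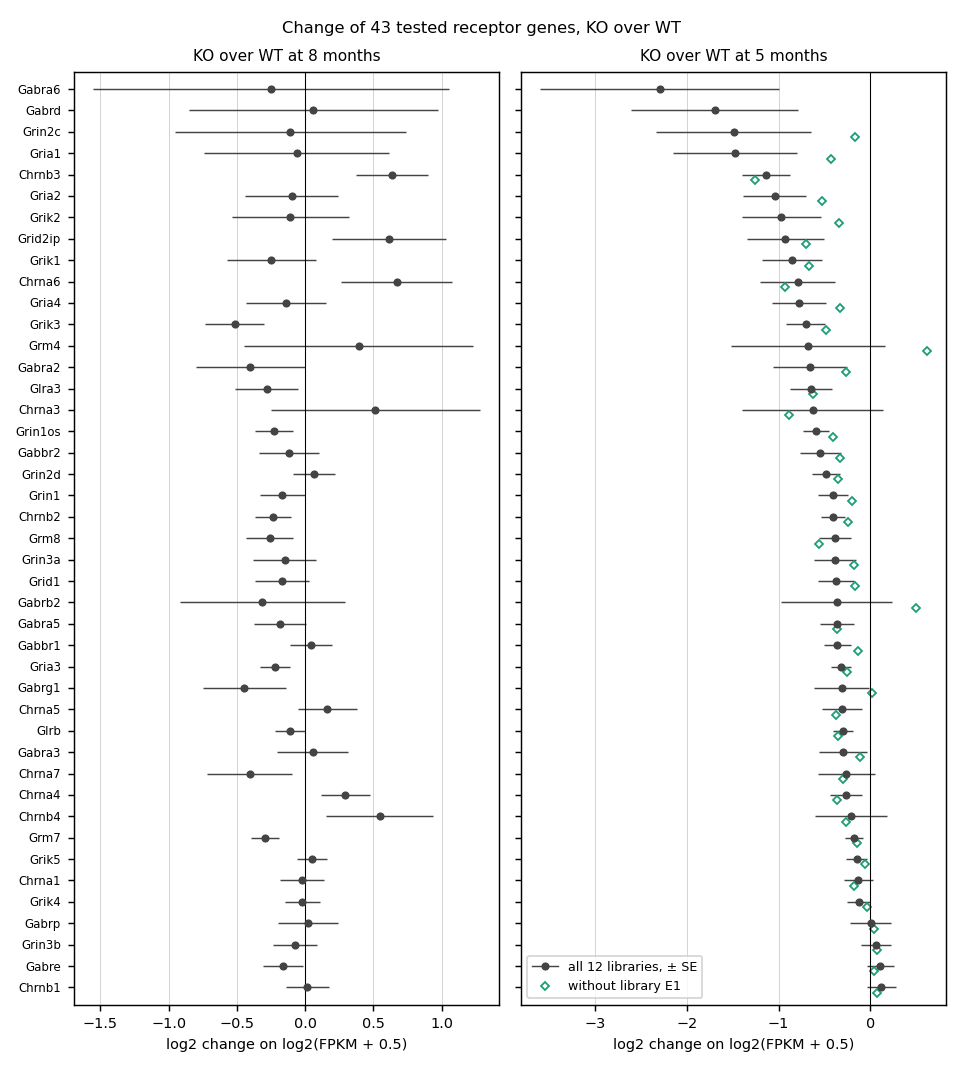
Log2 change of 43 tested members, KO over WT, at 8 months (left) and at 5 months (right, with another scale). Points carry the standard error of the limma fit, and diamonds give the change at 5 months without E1. At 5 months 39 of 43 points lie below 0, and the diamonds of Grm4 and Gabrb2 are among those above it.

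The second comparison asks the same at 8 months, with libraries other than those at 5 months. Of the 48 members, 0 were called (background 0.0123%), and the lowest adjusted p among members was 0.930. At an unadjusted p under 0.05, 2 were lower in KO (background 2.97%), Grik3 and Grm7, and 1 higher (background 2.21%), Chrnb3. With E1 left out of the shared fit, Chrnb2 and Grin1os joined those lower, and without F12 the count of lower members was 0. The median change was -0.12, against -0.0040 over all tested genes, with 33 of 48 below 0 against 51.5% of all genes. The groups lay apart with KO lower for 11 of 48 (background 6.19%) and with KO higher for 1 (background 4.1%). Chrnb2, Gria3, Grik3, Grin1os, Grm7, Gabra2, Gabra5, Gabre and Gabrg1 were among the 11. Low changes were those of Grik3 (-0.52), Gabrg1 (-0.45), Chrna7 (-0.41) and Gabra2 (-0.40). The highest were those of Chrna6 (0.67), Chrnb3 (0.64), Grid2ip (0.61), Chrnb4 (0.55) and Chrna3 (0.51). Single libraries moved some of these: Chrna7 stood at -0.16 without F6 and -0.70 without F5, and Chrnb4 at 0.29 without F5 and 0.93 without F27.

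For 5 of the 48 members the groups lay apart with KO lower at both ages (background 2.01%): Chrnb2, Gria3, Grik3, Grin1os and Grm7, and the same 5 of 45 did so without E1 (background 2.43%). For 3 of them, Chrnb2, Grik3 and Grin1os, each of the 6 KO libraries was below each of the 6 WT libraries (background 0.928%). Chrnb2, the beta subunit of the most common neuronal nicotinic receptor, had 5.42, 5.65 and 5.28 FPKM in KO against 6.37, 6.45 and 6.69 FPKM in WT libraries at 8 months. At 5 months it had 4.95, 5.00 and 6.01 FPKM in KO against 9.18, 6.63 and 6.08 FPKM in WT libraries. All KO values were below all WT values, though the nearest, 6.01 and 6.08 FPKM, nearly meet. The change was -0.24 ± 0.13 at 8 months, -0.41 ± 0.13 at 5 months (-0.24 without E1) and -0.32 ± 0.09 averaged over both ages (adjusted p = 0.191), and -0.24 ± 0.06 averaged without E1 (adjusted p = 0.229). Over 20 alternatives to the averaged fit its adjusted p ranged from 0.150 to 0.383.

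Grik3, a kainate receptor subunit, had 0.843, 0.844 and 1.18 FPKM in KO against 1.55, 1.53 and 1.64 FPKM in WT at 8 months, and 1.28, 1.18 and 1.17 FPKM in KO against 3.28, 1.44 and 2.45 FPKM in WT at 5 months. The averaged change was -0.61 ± 0.15 (adjusted p = 0.141, from 0.0919 to 0.279 over 20 alternatives), and -0.50 without E1. This was the largest averaged change among the 5, at a level of about 1 FPKM. Grin1os had 6.02, 6.26 and 6.68 FPKM in KO against 6.77, 7.74 and 7.97 FPKM in WT at 8 months, and 5.87, 5.49 and 6.25 FPKM in KO against 11.8, 7.68 and 8.22 FPKM in WT at 5 months. It had the lowest adjusted p of any member in the averaged comparison, 0.130, with a change of -0.41 ± 0.10, and -0.32 ± 0.06 without E1 (adjusted p = 0.160). Grin1, with which it overlaps, had 15.04, 15.3 and 17.6 FPKM in KO against 15.7, 19.2 and 19.2 FPKM in WT at 8 months, and 15.4, 15.5 and 14.8 FPKM in KO against 27.6, 16.2 and 18.8 FPKM in WT at 5 months. Grin1 groups overlapped at 8 months.

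Gria3, the most abundant AMPA subunit here, had 10.2, 8.94 and 11.3 FPKM in KO against 11.9, 11.5 and 12.1 FPKM in WT at 8 months, and 11.2, 9.02 and 11.6 FPKM in KO against 14.6, 12.5 and 12.8 FPKM in WT at 5 months. The averaged change was -0.27 ± 0.08 (adjusted p = 0.190), and -0.24 without E1. Grm7 had 4.07, 3.52 and 3.14 FPKM in KO against 4.61, 4.14 and 4.68 FPKM in WT at 8 months, and 3.67, 3.26 and 3.78 FPKM in KO against 4.31, 4.04 and 3.92 FPKM in WT at 5 months. Its averaged change was -0.23 ± 0.07 (adjusted p = 0.203), and -0.22 without E1. In both genes the nearest KO and WT values were close at 8 months: 11.3 and 11.5 FPKM in Gria3, and 4.07 and 4.14 FPKM in Grm7.

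Averaged over both ages, 0 of 48 members were called (background 0.0799%), and 0 of 45 without E1 (background 0.0369%). At an unadjusted p under 0.05, 13 were lower (background 9.66%) and 0 higher (background 7.75%), and without E1 12 were lower (background 7.81%) and 1, Grm4, higher (background 5.65%). The count of lower members was 8 without F10 or without F12. The median change was -0.28, against -0.02 over all genes, and -0.18 without E1. The lowest changes were those of genes high in E1, such as Gabra6 (-1.28), Gabrd (-0.82), Grin2c (-0.80) and Gria1 (-0.77). Without E1, Grin2c stood at -0.13 and Gria1 at -0.25 in this average, and Gabra6 and Gabrd were not tested. The highest were Chrnb4 (0.17), Chrnb1 (0.07), Chrna4 (0.02), Gabrp (0.01) and Grin3b (-0.01), of which Chrna4, Gabrp and Grin3b took the other sign in some alternatives.

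**Figure D4:**
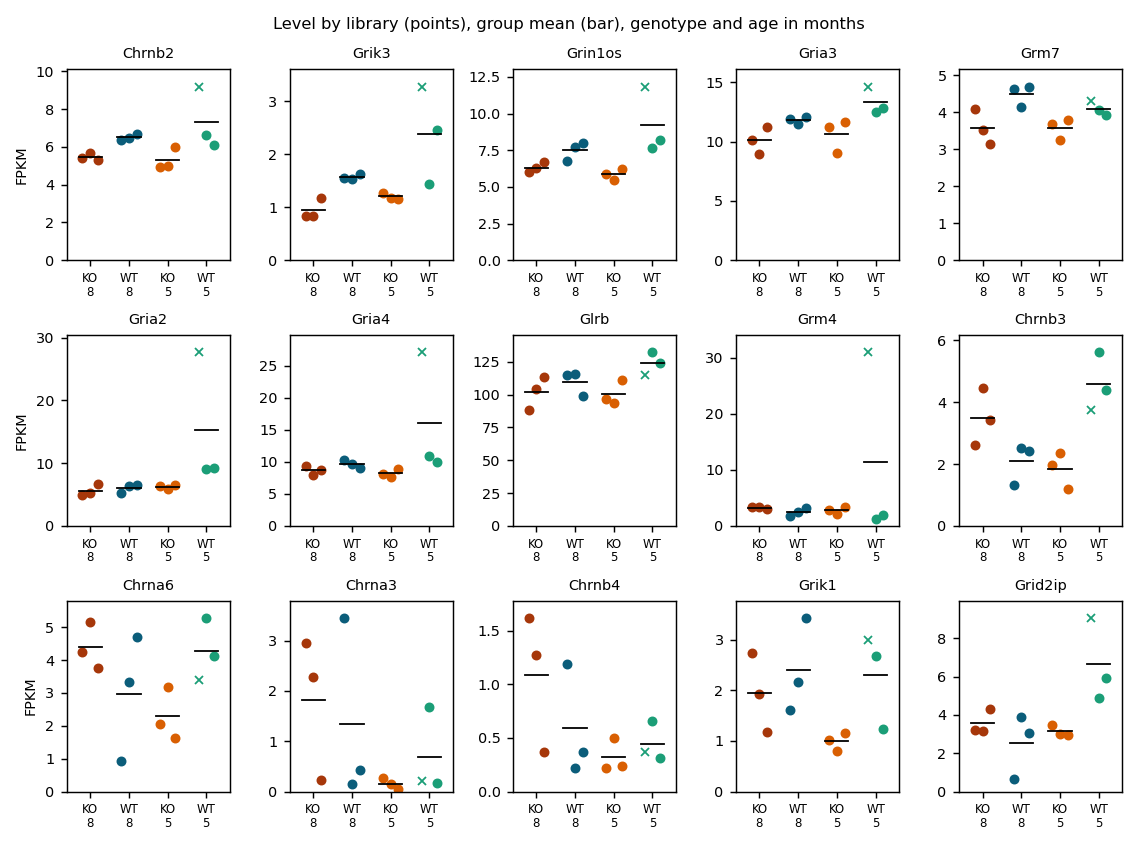
FPKM of 15 members, among them Grin1os and Grid2ip, by library for KO and WT at 8 months and at 5 months. Points are libraries, the bar is the group mean and the cross is E1. In Chrnb2, Grik3 and Grin1os all KO points lie below all WT points, and in Chrnb3 the order of KO and WT at 8 months is the reverse of that at 5 months.

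Chrnb3, a subunit that joins Chrna6 in nicotinic receptors, lay on opposite sides at the 2 ages. At 8 months it had 2.60, 4.46 and 3.42 FPKM in KO against 1.33, 2.51 and 2.41 FPKM in WT libraries. At 5 months it had 1.98, 2.34 and 1.21 FPKM in KO against 3.75, 5.61 and 4.41 FPKM in WT libraries. The groups do not overlap at either age, and KO is the higher group at 8 months and the lower at 5 months; 51 of the 16276 tested genes (0.313%) show groups apart in opposite directions. The change was 0.64 ± 0.26 at 8 months (adjusted p = 0.962) and -1.13 ± 0.26 at 5 months (adjusted p = 0.147). The difference between these changes was 1.77 ± 0.37, with an adjusted p of 0.876 (0.314 to 0.983 over 20 alternatives). In that test 0 of 48 members were called (background 0.00614%), and 4 had an unadjusted p under 0.05 (background 4.68%), all with the higher change at 8 months: Chrnb3, Chrna6, Grid2ip and Grin2d. Without E1 there were 0 calls among 45 members (background 0%) and 4 at an unadjusted p under 0.05 (background 3.47%), of which Chrnb3 and Chrna6 were shared and Chrna4 and Gria2 were not.

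Chrna6 lies 3.48 kb from Chrnb3 on chromosome 8, at 28513684-28524416 next to 28479183-28510202 in mm9. It had 4.25, 5.15 and 3.76 FPKM in KO against 0.927, 3.32 and 4.69 FPKM in WT at 8 months, and 2.06, 3.18 and 1.62 FPKM in KO against 3.38, 5.28 and 4.13 FPKM in WT at 5 months. Its change was 0.67 ± 0.41 at 8 months, where the groups overlap, and -0.79 ± 0.41 at 5 months, where they do not. WT library F1 was the lowest of all 12 for Chrna6 and for Grid2ip (0.664 FPKM, against 2.97 to 9.06 FPKM in the others). Without F1 the change at 8 months was 0.12 for Chrna6, 0.02 for Grid2ip and 0.41 for Chrnb3. The difference between ages of Chrnb3 was then 1.54.

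Chrna3 and Chrnb4, which form the nicotinic receptor of autonomic ganglia, lie 1.60 kb apart on chromosome 9, at 54859150-54874366 and 54875963-54896351 in mm9, both on the minus strand. Chrna3 had 2.95, 2.27 and 0.237 FPKM in KO against 3.45, 0.155 and 0.435 FPKM in WT at 8 months, and 0.268, 0.151 and 0.0494 FPKM in KO against 0.201, 1.68 and 0.164 FPKM in WT at 5 months. Chrnb4 had 1.62, 1.28 and 0.368 FPKM in KO against 1.19, 0.216 and 0.371 FPKM in WT at 8 months, and 0.223, 0.501 and 0.234 FPKM in KO against 0.373, 0.655 and 0.317 FPKM in WT at 5 months. Both genes were highest in the same 4 libraries, F5, F6, F1 and E3, which come from 3 groups. Prph, an intermediate filament of peripheral neurons, was at 90.1, 92.7, 69.3 and 48.8 FPKM in those 4 libraries, but also at 89.1 FPKM in F12 and 59.6 FPKM in F10, where Chrna3 was low, and at 47.0 FPKM in F19, where Chrna3 was lowest. Their part in the spread of Chrna3 and Chrnb4 was not tested. Chrna5, the third gene of the cluster, did not follow: it had 0.893 and 0.628 FPKM in F5 and F6, 0.451 FPKM in F1 and 0.769 FPKM in E3, next to 0.324 to 0.854 FPKM in the other 8.

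Within genotypes, 8 months was compared with 5 months. These contrasts share their libraries with the comparisons of KO and WT and are not independent of them. In KO, 0 of 48 members were called, as were 0 of all tested genes (background 0%), and 1 member had an unadjusted p under 0.05 (background 12.6%), Chrnb3, at 0.78 ± 0.26. The median change in KO was 0.09, against 0.01 over all genes. The highest changes were those of Chrna3 (1.56), Chrnb4 (0.87), Chrna6 (0.84), Chrnb3 (0.78) and Grik1 (0.67). Grik1 had 2.73, 1.93 and 1.18 FPKM in KO at 8 months against 1.02, 0.795 and 1.15 FPKM in KO at 5 months. Among the lowest were those of Glra3 (-0.29), Grik3 (-0.24), Gabrb2 (-0.22) and Gria2 (-0.14). In this fit the share of members at an unadjusted p under 0.05 was thus below that of all genes. The count of higher members ranged from 0 to 6 over the alternatives.

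All WT libraries at 5 months carry the letter E and all at 8 months the letter F, so age and letter cannot be told apart in WT. In WT, 0 of 48 members were called (background 0.0123%), and 6 had an unadjusted p under 0.05 (background 7.84%), of which 5 were lower and 1 higher. Without E1, 0 of 45 were called (background 0.00616%), and 6 had an unadjusted p under 0.05 (background 4.83%): the 5 lower ones were the same genes, Grid2ip, Gria2, Chrnb3, Glra3 and Grin2d. The count of lower members was 17 without E3 and 11 without E4. The median change in WT was -0.22, and -0.03 without E1. The lowest changes, Gabra6 (-2.04), Grin2c (-1.40), Grid2ip (-1.39), Gabrd (-1.39) and Gria1 (-1.36), were again mostly those of genes high in E1. Without E1 the change with age in WT was -0.07 for Grin2c, -0.32 for Gria1 and -1.16 for Grid2ip, and Gabra6 and Gabrd were not tested. Grid2ip, lowest in F1, had a change of -0.81 without that library. Gria2 was lower at 8 months with and without E1: it had 5.24, 6.37 and 6.55 FPKM in WT at 8 months against 27.7, 9.14 and 9.28 FPKM in WT at 5 months, a change of -1.09 ± 0.34, and of -0.57 ± 0.14 without E1 (adjusted p = 0.866). Among the highest changes were those of Chrna3 (0.42), Chrnb1 (0.37), Gabre (0.21) and Chrnb4 (0.12). Chrnb1 had 9.95, 13.0 and 9.25 FPKM at 8 months against 7.51, 8.41 and 8.45 FPKM at 5 months, with groups apart.

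Genes that work with these receptors were counted by list at 5 months, each with 0 genes called by limma. Over all tested genes 9.92% were lower at this age at an unadjusted p under 0.05, with a median change of -0.03. Of 13 tested auxiliary subunits of AMPA, NMDA and kainate receptors, 6 were lower at an unadjusted p under 0.05 and 0 higher, with a median change of -0.35. Of 22 scaffolds of excitatory synapses 6 were lower and 0 higher (median -0.34), and of 22 genes of transmitter synthesis and transport 9 were lower and 0 higher (median -0.52). Shisa6 among the auxiliary subunits, and Gad2 and Slc32a1 among the transmitter genes, passed the filter only through WT library E1. Their lower side in KO at 5 months therefore carries no weight, and they are not among the genes tested without E1. Of 12 nicotinic receptor chaperones and partners 4 were lower (median -0.27), and of 15 inhibitory synapse scaffolds and GABA-B partners 2 were lower (median -0.14). Without E1 the numbers lower were 4 of 12, 3 of 22, 5 of 20, 6 of 12 and 1 of 15 (background 6.33%), for the auxiliary subunits, excitatory scaffolds, transmitter genes, nicotinic partners and inhibitory scaffolds in that order, and 0 were higher. The medians were then -0.34, -0.18, -0.27, -0.23 and -0.10, against -0.02 over all genes. At 8 months 1 of 13, 0 of 22, 1 of 22, 2 of 12 and 4 of 15 were lower (background 2.97%), with medians of -0.02, -0.07, -0.06, -0.09 and -0.09, against -0.0040 over all genes.

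Markers of other cells differed between the groups beside these results. Neuron markers summed to 1738 to 2094 FPKM in KO against 1875 to 2206 FPKM in WT at 8 months, and to 1457 to 1725 FPKM in KO against 1907 to 1957 FPKM in WT at 5 months, with 3 of 11 lower at 5 months at an unadjusted p under 0.05 (background 9.92%), and 2 of 11 without E1 (background 6.33%). Hair cell markers summed to 106 to 134 FPKM in KO against 100.4 to 137 FPKM in WT at 8 months, and to 89.5 to 110.3 FPKM in KO against 90.7 to 119 FPKM in WT at 5 months. Neutrophil markers summed to 890 to 16547 FPKM in KO against 683 to 4572 FPKM in WT at 8 months, and to 4090 to 22691 FPKM in KO against 70.1 to 675 FPKM in WT at 5 months, with 10 of 10 higher at 5 months at an unadjusted p under 0.05 (background 8.23%), and 9 of 10 without E1 (background 5.62%). B cell markers summed to 47.5 to 65.9 FPKM in KO against 40.7 to 94.6 FPKM in WT at 8 months, and to 53.9 to 159 FPKM in KO against 34.5 to 42.2 FPKM in WT at 5 months, with 7 of 8 higher at that level, and 6 of 8 without E1. Oligodendrocyte markers summed to 79.3 to 107 FPKM in KO against 95.1 to 130 FPKM in WT at 8 months, and to 77.0 to 110 FPKM in KO against 81.6 to 150 FPKM in WT at 5 months. Schwann and satellite cell markers summed to 1409 to 1629 FPKM in KO against 1444 to 1585 FPKM in WT at 8 months, and to 1304 to 1891 FPKM in KO against 1464 to 1939 FPKM in WT at 5 months. Among the neuron markers, Snap25 alone had 439 to 493 FPKM in KO against 626 to 698 FPKM in WT at 5 months. Stmn2, Syt2 and Thy1 also lay lower in each KO library at that age. The groups overlapped in Tubb3, Nefl, Nefm, Nefh, Prph, Uchl1 and Isl1. At 5 months the summed neuron markers thus lay lower, though not most of the single ones, and the summed neutrophil and B cell markers higher, in each KO library than in each WT library. Their part in the receptor levels was not tested, and in whole cochleae fewer cells of a type and less RNA per cell cannot be told apart.

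**Figure D5:**
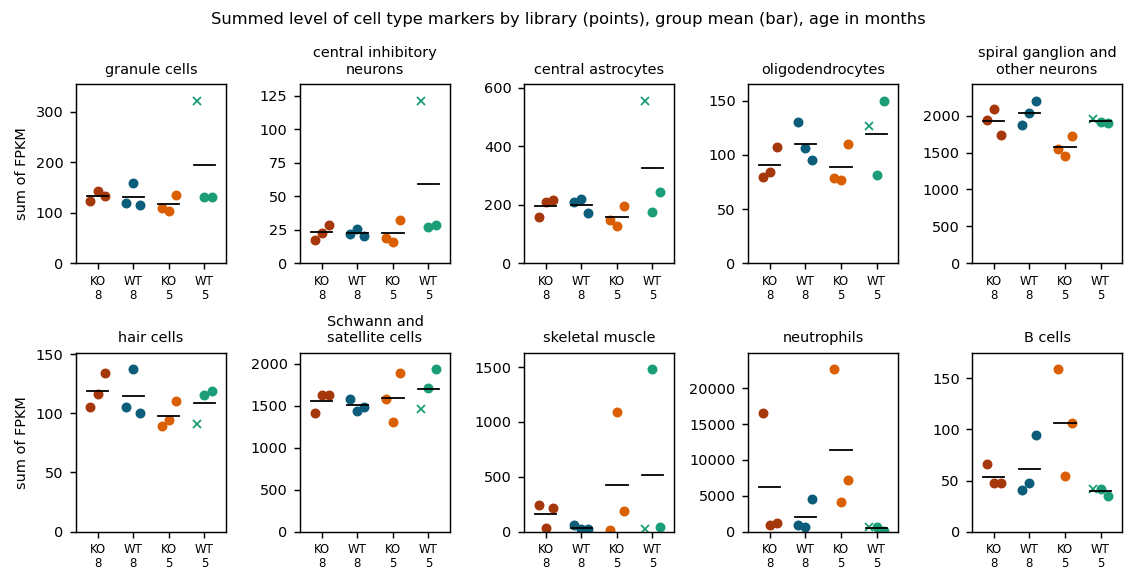
Summed FPKM of 10 marker lists by library for KO and WT at 8 months and at 5 months; points are libraries, the bar is the group mean and the cross is E1. E1 lies far above the rest for granule cells, central inhibitory neurons and central astrocytes, and neutrophil markers at 5 months are higher in all 3 KO than in all 3 WT libraries.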

How the data were processed

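RNA of whole mouse cochleae was sequenced in 12 libraries. Per the study's methods, the authors made stranded polyA libraries and, per the submitters' processing notes in the labels, used FastQC 0.10.1, TopHat2 2.0.10, Bowtie 1.0.0, SAMtools 0.1.19 and Cufflinks 2.2.1 on build mm9. The deposited table gives FPKM by gene and library as the authors computed it, but 55.37% of its entries needed their decimal point put back. To do so, the 3 libraries of a group were treated jointly, and the set of 3 placings whose mean equals the authors' deposited group FPKM (relative tolerance 2e-05) was taken. Of 95804 gene and group pairs, 95584 had 1 such set, 206 had several, of which the nearest was taken, and 14 had none; 6 of the 23951 genes, none a receptor gene, were left out. Fold changes and p-values of the authors' own pairwise comparisons stand in the deposited comparison tables and were not used, nor were the deposited enrichment reports. No column of per-library values was left out.

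Genes that averaged 0.5 FPKM or more in the 12 libraries were tested with limma 3.58.1 (R 4.3.3, variance trend) on log2(FPKM + 0.5) of the deposited FPKM in 1 fit of the 4 groups, with Benjamini-Hochberg adjustment over all 16276 tested genes and a threshold of 0.05. FPKM hold no read counts, so depth is unknown and no counting interval is given. The labels do not say more of the animals, so p-values measure the spread between these libraries. An exact permutation test of 3 against 3 libraries cannot go below p = 0.1 and is not quoted. Alternatives were other pseudocounts, filters, scalings, weights, no trend, a fit of only the groups compared, and each library left out.

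All 65 genes are accounted for by class. Named with values were genes that averaged 1 FPKM or more, the top gene of each class, any called gene, the 5 highest and 5 lowest changes of a contrast and genes within 10 Mb of Dusp1; some genes that the rule names are not reported or drawn here, though they are part of the counts and sums; others that are singled out were chosen after their values were seen. The members, the 15 lists and the tests were chosen with earlier results of these data known. The scripts were tested on simulated data. Promoters are from RefSeq (GRCm38.p6); coordinates of genes are those of the deposited tables (mm9).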

Additional observations from a re-analysis of the deposited data

Results flagged for a closer look

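Chrnb3 stood out because its KO and WT libraries lay apart at both ages in opposite directions. The change between KO and WT was 0.64 at 8 months and -1.13 at 5 months, and the difference between them was 1.77 on the log2(FPKM + 0.5) scale (limma, unadjusted p = 0.000765, adjusted p = 0.876). Leaving out each library in turn gave 1.54 to 1.94. No group has more than 3 libraries, so no library was tested as an outlier within a group.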

How the results depend on the processing

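No member was called in any of the 6 contrasts under the 9 other settings (8 for the averaged change and the difference between ages) or with each of the 12 libraries left out. Of 50 changes, the 5 highest and 5 lowest among members in each of 5 contrasts, 10 took the other sign in at least 1 alternative, and no such change was called. They include Gabrp and Grin3b at 5 months and averaged, Chrna4 averaged, Chrna3 at 8 months (without F10) and with age in WT, Chrnb4 with age in WT, and Gabrb2 with age in KO. Outside these 50, the members that took the other sign at 5 months without E1 include Grm4 and Gabrb2, and they are not all named here. The cause was not tested. The median change of members at 5 months ranged from -0.56 to -0.32 over the other settings and, with each library left out, from -0.55 (without E4) to -0.26 (without E1); at 8 months it ranged from -0.16 to -0.10, averaged over both ages from -0.34 to -0.18, in KO with age from 0.03 to 0.14, and in WT with age from -0.29 to -0.03 (without E1). The number of members lower at 5 months at an unadjusted p under 0.05 ranged from 7 (without F18) to 24 (without E3) around 18, and was 10 without E7, 11 without E1 and 11 in a fit of only the 2 groups compared. The same count ranged from 0 to 4 around 2 at 8 months, from 8 to 18 around 13 averaged over both ages, and from 4 to 17 around 5 in WT with age; members higher in KO with age numbered 0 to 6 around 1, and members with the higher change at 8 months 2 to 8 around 4. No paired analysis was possible because the labels give each library its own code and the groups share none. Group size (3 libraries), the unknown depth and library E1 limit what can be told of genes near 1 FPKM.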
